A study of Ovis aries with 10 samples.

Results

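The mitochondrial carriers of the SLC25 family were described in adrenal glands of sheep fetuses, as the genes whose symbol is SLC25A followed by a number in the authors' deposited table of differential expression. The pattern found 38 genes among 19316 rows, each with 1 row under its symbol. All 38 symbols are in the RefSeq gene table of the sheep assembly ARS-UI_Ramb_v3.0. A further 10 family symbols that were looked for have no row under these names and are not analysed here, namely SLC25A2, SLC25A18, SLC25A30, SLC25A36, SLC25A40, SLC25A44, SLC25A47, SLC25A48, SLC25A51 and SLC25A52. In 5435 of the rows a transcript ID stands in place of a symbol. A search by symbol cannot show whether these rows hold the missing genes or second rows of the others. RNA of whole fetal glands at 102 days of gestation was sequenced in 5 libraries of an endotoxin group, injected with endotoxin (bacterial lipopolysaccharide), and 5 libraries of a control group, injected with saline. Control titles read WT, the labels used here state no genotype, breed, dose, injection site or interval after injection, and both groups hold female and male fetuses. The libraries held 12494386 to 18324516 estimated counts. The glands hold cortex, medulla, vessels and blood, so more RNA per cell and more cells of a type cannot be told apart.

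SLC25 proteins sit mostly in the inner mitochondrial membrane and exchange metabolites, nucleotides, cofactors and inorganic ions between the cytosol and the matrix. They are made in the cytosol, brought in by the TOM and TIM22 complexes, and are named by the substrate they move. In the adrenal cortex the first and the last step of cortisol synthesis take place in the mitochondrial matrix, where the enzymes draw on NADPH and reduced ferredoxin, and carboxylate carriers supply part of the fuel for this.

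The threshold set here was 0.05 on the authors' adjusted p. No SLC25 gene passed it between endotoxin and control glands, where 1.72% of all rows with a p did. At an unadjusted p under 0.05 there were 10 of the 38. Of these, 9 were higher with endotoxin, 23.7% of the members, beside 7.58% of all rows with a p. At a mean level of 10 TPM or more (TPM is a level set per transcript length and per library size) 7 of 21 members were higher, or 33.3%, beside 11.8% of such rows with a p. Below that level 2 of 17 members were, beside 4.79% of such rows. The tenth, SLC25A27, was lower, where 5.35% of all rows with a p were. The 9 were SLC25A3, SLC25A5, SLC25A10, SLC25A17, SLC25A22, SLC25A29, SLC25A35, SLC25A38 and SLC25A39, carriers of phosphate, adenine nucleotides, dicarboxylates, amino acids, glutathione and peroxisomal cofactors, and in SLC25A35 a carrier of unsettled substrate. The smallest adjusted p that the authors' deposited table holds for a carrier was 0.0524, for SLC25A29, and the largest was 0.998.

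The authors' deposited table gives a mean for each group and no values per library, so overlap between libraries cannot be shown for any carrier. The per-library tables use gene identifiers of the form ENSBTAG, without symbols. Of these, 0 of 20781 are in the RefSeq gene table of the sheep assembly. That lookup gave them no symbol and cannot show whether carriers are among them. The table names its groups A and B, and B was read as endotoxin. Fold changes below were computed by multiplying the authors' score with its standard error, on the scale of their count model, and each interval is a 95% normal interval from that error. Adjusted p-values are the authors' own and equal a Benjamini-Hochberg adjustment of their model's p over all rows with a p.

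By level, a few carriers made up most of the family's transcripts. The mean levels of the 38 genes summed to 2651 TPM in endotoxin glands and 2396 TPM in control glands, in the authors' deposited table. SLC25A6, SLC25A3 and SLC25A1 together held 71.2% of that sum in endotoxin glands and 70.9% in control glands. A mean of at least 10 TPM over both groups was reached by 21 of the 38 genes, and 3 were under 1 TPM, namely SLC25A21, SLC25A31 and SLC25A45. The order of the carriers by level was close in both groups, with 16 at the same rank and no gene moving by more than 5 places.

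**Figure D1:**
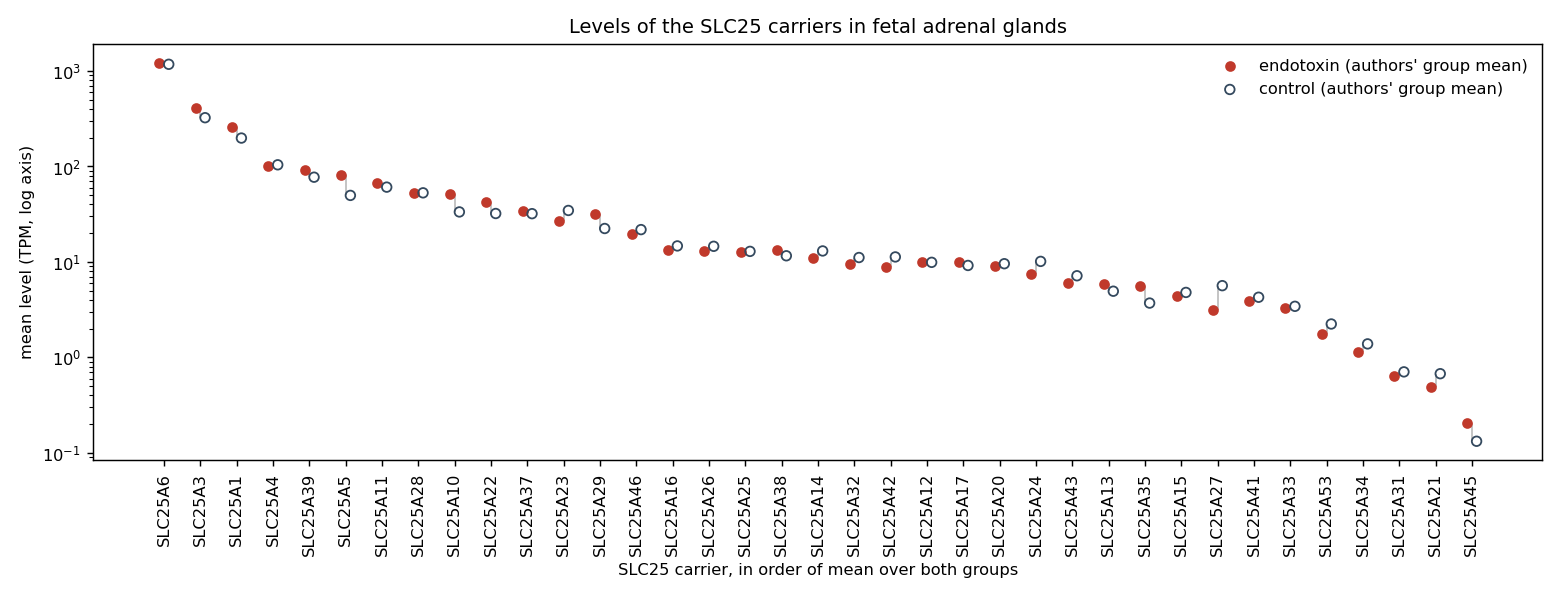
Group mean level in TPM, on a log axis, of 37 SLC25 carriers in the authors' deposited table, with filled points for endotoxin glands and open points for control glands. SLC25A6 lies highest, at 1216 TPM with endotoxin and 1176 TPM in control, and SLC25A45 lowest, at 0.205 TPM with endotoxin and 0.132 TPM in control.

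Adenine nucleotide carriers exchange ATP made in the matrix for cytosolic ADP, and SLC25A6 was by far the most abundant of them. SLC25A6 had 1216 TPM in endotoxin glands and 1176 TPM in control glands, a log2 fold change of 0.17 ± 0.22 (SE; interval -0.27 to 0.60; adjusted p = 0.881) in the authors' deposited table. SLC25A5, the form linked in other mammals to dividing cells, had 80.7 TPM with endotoxin and 49.8 TPM in control. Its log2 fold change of 0.78 ± 0.28 (SE; interval 0.23 to 1.33) was the highest among carriers averaging 1 TPM or more, and it missed the threshold (unadjusted p = 0.00556, adjusted p = 0.139) in the authors' deposited table. SLC25A4, the form of heart and skeletal muscle, had 100.8 TPM with endotoxin and 104.1 TPM in control, at 0.09 ± 0.20 on the log2 model scale. The testis form SLC25A31 was at 0.634 TPM with endotoxin and 0.705 TPM in control. Among these genes SLC25A6 therefore held 87.0% of the summed level with endotoxin and 88.4% in control, and SLC25A5 held 5.77% with endotoxin and 3.74% in control. SLC25A4, SLC25A5 and SLC25A6 are close in sequence, and how reads were divided among them is uncertain.

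The phosphate carrier SLC25A3 supplies ATP synthase with phosphate and also brings copper into the matrix. It had 410.1 TPM in endotoxin glands and 324.3 TPM in control glands. Its log2 fold change was 0.45 ± 0.18 (SE; interval 0.11 to 0.80; unadjusted p = 0.0107, adjusted p = 0.193) in the authors' deposited table. Carriers of ATP-Mg and phosphate, which change the size of the matrix nucleotide pool and mostly respond to calcium, summed to 50.9 TPM with endotoxin and 61.9 TPM in control. SLC25A23 had 26.8 TPM with endotoxin and 34.6 TPM in control, at -0.22 ± 0.17 on the log2 model scale. SLC25A24 had 7.47 TPM with endotoxin and 10.1 TPM in control, a log2 fold change of -0.29 ± 0.21 (SE; interval -0.70 to 0.12; adjusted p = 0.639) in the authors' deposited table. SLC25A25 was at 0.13 and SLC25A41 at -0.02 on the log2 model scale, so the members of this subset lay on both sides of 0 there. On the log2 ratio of group means plus 1 TPM each member was below 0. SLC25A23 was at -0.36, SLC25A24 at -0.39, SLC25A25 at -0.01 and SLC25A41 at -0.11 on that scale.

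Carriers of carboxylates link the citric acid cycle to cytosolic NADPH and lipid synthesis. SLC25A1, which exports citrate, had 260.7 TPM in endotoxin glands and 198.5 TPM in control glands. Its log2 fold change was 0.48 ± 0.27 (SE; interval -0.04 to 1.01; unadjusted p = 0.0724, adjusted p = 0.45) in the authors' deposited table. SLC25A10, which exchanges malate and succinate for phosphate, had 52.1 TPM with endotoxin and 33.4 TPM in control, at 0.73 ± 0.23 (SE; interval 0.28 to 1.17; unadjusted p = 0.00135, adjusted p = 0.0639) in the authors' deposited table. SLC25A11, the oxoglutarate/malate carrier of the malate-aspartate shuttle, had 66.9 TPM with endotoxin and 60.8 TPM in control, at 0.25 ± 0.14. SLC25A21, the oxodicarboxylate carrier, was low, with 0.495 TPM with endotoxin and 0.675 TPM in control. The 4 genes summed to 380.1 TPM with endotoxin and 293.3 TPM in control, a ratio of 1.30, the highest of the 8 substrate groups. This ratio of sums has no error, since the table gives none for sums. SLC25A1, whose interval spans 0, made up 62.2 TPM of the difference. The amino acid carriers were next, at a ratio of 1.26.

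Of the 6 amino acid carriers, 5 had a log2 fold change above 0, or 4 on the scale of group means plus 1 TPM, and 3 were higher at an unadjusted p under 0.05. Over all rows with a p these shares were 50.9% above 0 on the model scale and 7.58% higher at that p. SLC25A29, which imports basic amino acids, had 32.0 TPM in endotoxin glands and 22.4 TPM in control glands, at 0.60 ± 0.18 (SE; interval 0.25 to 0.96; unadjusted p = 0.00096, adjusted p = 0.0524) in the authors' deposited table. When only rows averaging 1 TPM or more were adjusted over, by which 2.39% of such rows passed, its Benjamini-Hochberg adjusted p was 0.0439, and this was the single call gained. SLC25A22, which imports glutamate with a proton, had 42.4 TPM with endotoxin and 32.2 TPM in control, at 0.50 ± 0.23 (SE; interval 0.04 to 0.95; unadjusted p = 0.0315). SLC25A38, which imports glycine for the first step of heme synthesis, had 13.3 TPM with endotoxin and 11.6 TPM in control, at 0.32 ± 0.16 (SE; interval 0.02 to 0.63; unadjusted p = 0.0397). The adjusted p of SLC25A22 and SLC25A38 was 0.32 and 0.351 in the authors' deposited table. The aspartate/glutamate carriers SLC25A12 and SLC25A13, the other carriers of the malate-aspartate shuttle, were low in level. SLC25A12 had 9.90 TPM with endotoxin and in control, and SLC25A13 had 5.86 TPM with endotoxin and 4.94 TPM in control. SLC25A13 was at 0.34 ± 0.20 and SLC25A12 at 0.11 ± 0.15 on the log2 model scale. SLC25A15, the ornithine/citrulline carrier, was at -0.003 ± 0.20, with 4.37 TPM with endotoxin and 4.79 TPM in control.

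Carriers of cofactors, nucleotides and glutathione lay on both sides of 0, with 4 of 8 above it on the model scale. Over all rows with a p 50.9% were above 0 on that scale. On the scale of group means plus 1 TPM 2 of these 8 carriers were. SLC25A39, which imports glutathione, was the most abundant, with 92.8 TPM in endotoxin glands and 77.2 TPM in control glands. Its log2 fold change was 0.37 ± 0.14 (SE; interval 0.10 to 0.64; unadjusted p = 0.00792, adjusted p = 0.167) in the authors' deposited table. SLC25A17, which carries cofactors across the membrane of peroxisomes and not of mitochondria, had 9.94 TPM with endotoxin and 9.19 TPM in control, at 0.23 ± 0.10 (SE; interval 0.03 to 0.43; unadjusted p = 0.0214, adjusted p = 0.262). For SLC25A42, which imports coenzyme A, the values were 8.96 TPM with endotoxin and 11.3 TPM in control, at -0.23 ± 0.17. Log2 fold changes between -0.08 and 0.07 on the model scale were found for SLC25A16, which is linked to coenzyme A, the S-adenosylmethionine carrier SLC25A26, SLC25A32, which is linked to folate and flavin transport, and the pyrimidine nucleotide carrier SLC25A33.

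Iron enters the matrix through the mitoferrins SLC25A37 and SLC25A28. SLC25A37, the form needed by developing red cells, had 34.4 TPM in endotoxin glands and 32.0 TPM in control glands, at 0.20 ± 0.19 on the log2 model scale (adjusted p = 0.775 in the authors' deposited table). SLC25A28 had 52.3 TPM with endotoxin and 53.0 TPM in control, at 0.10 ± 0.18. The carnitine/acylcarnitine carrier SLC25A20, which brings fatty acids in for oxidation, had 9.12 TPM with endotoxin and 9.58 TPM in control, at 0.003 ± 0.23 (interval -0.44 to 0.45), and SLC25A45 was too low for a narrow interval, at 0.70 ± 0.98.

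The uncoupling protein relatives were both below 0. SLC25A27, also called UCP4 and known mostly from brain, had 3.13 TPM in endotoxin glands and 5.64 TPM in control glands. Its log2 fold change of -0.67 ± 0.26 (SE; interval -1.18 to -0.15; unadjusted p = 0.0115, adjusted p = 0.2) was the lowest of the 38 carriers in the authors' deposited table. SLC25A14 had 11.0 TPM with endotoxin and 13.0 TPM in control, at -0.12 ± 0.15. Among the carriers without a settled substrate or in the outer membrane, SLC25A35 stood at 5.64 TPM with endotoxin and 3.71 TPM in control, at 0.69 ± 0.23 (SE; interval 0.24 to 1.14; unadjusted p = 0.00247, adjusted p = 0.0902) in the authors' deposited table. In this group 4 others were below 0, with SLC25A46, an outer membrane protein tied to mitochondrial shape, at -0.04, SLC25A43 at -0.12, SLC25A34 at -0.19 and SLC25A53 at -0.21 on the log2 model scale. The plot of fold changes by substrate shows these values with their intervals.

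**Figure D2:**
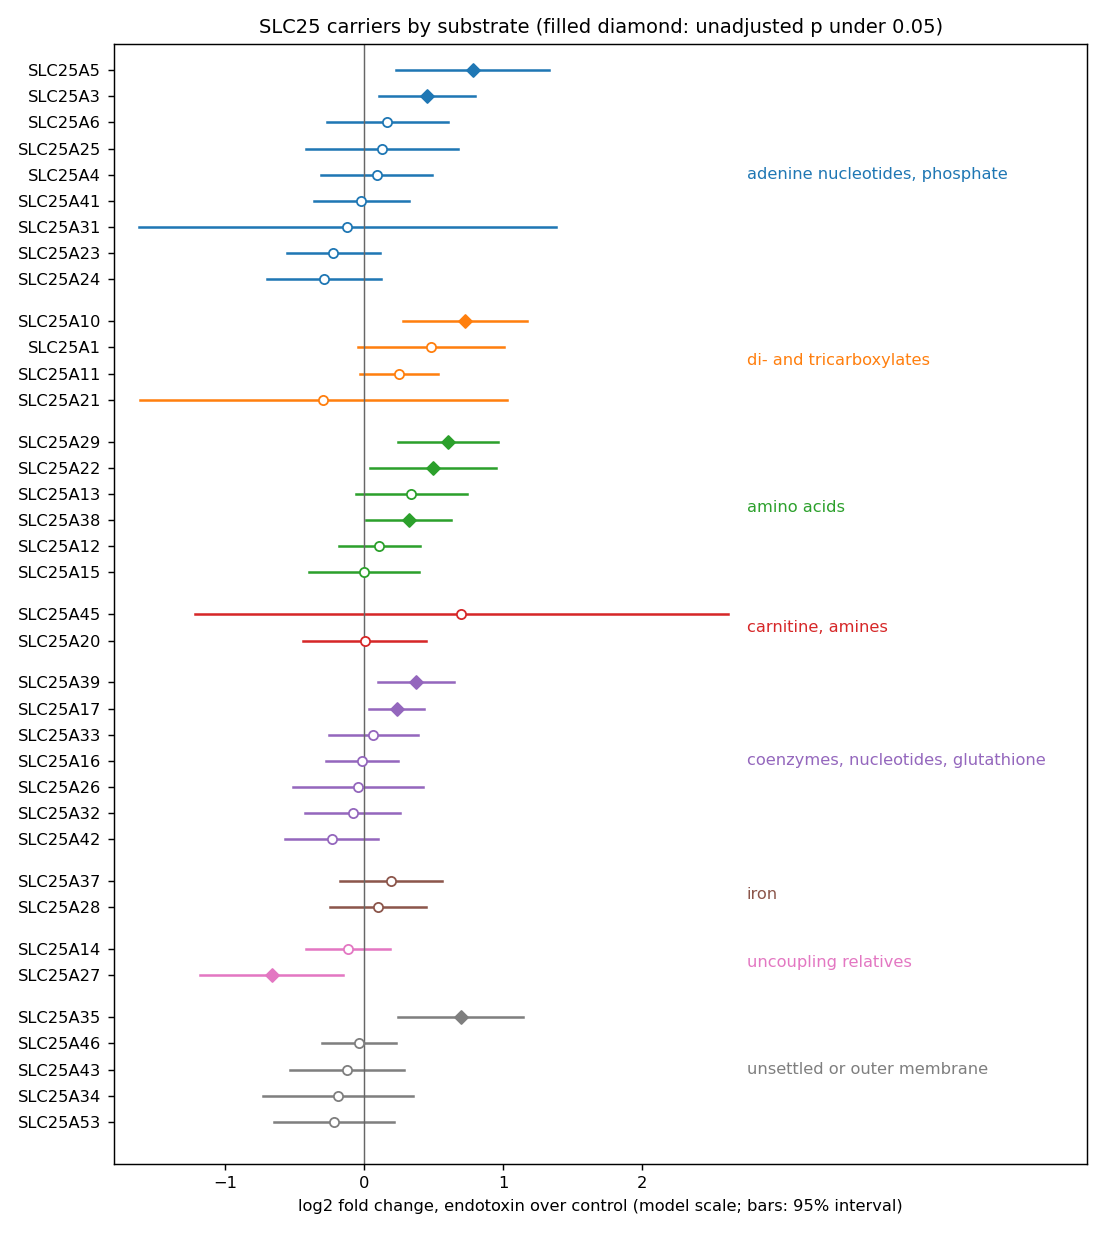
Log2 fold change of endotoxin over control on the model scale, with its 95% interval as a bar, for 37 SLC25 carriers grouped by substrate; filled diamonds have an unadjusted p under 0.05. The 10 diamonds include SLC25A27 alone on the negative side, at -0.67, and SLC25A5 at 0.78 as the highest of the positive ones.

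The intervals limit how large a difference these libraries allow. In 30 of the 38 carriers, or 78.9%, the interval lay within a 2-fold change in either direction, beside 63.5% of all rows with a p. All 30 were among the 35 carriers averaging 1 TPM or more, where 81.7% of rows with a p had such an interval. At 10 TPM or more it was 18 of 21 carriers, or 85.7%, beside 89.7% of all rows at that level. Standard errors ran from 0.10 to 0.28 among carriers averaging 1 TPM or more, and from 0.67 to 0.98 among the 3 below it. Of the 38 values 22 were above 0, and the median log2 fold change was 0.09, beside 50.9% of all rows with a p above 0 and a median of 0.008 over all rows. Among carriers averaging 10 TPM or more 14 of 21 were above 0, beside 61.2% of rows with a p at that level. On the log2 ratio of group means plus 1 TPM, 15 of the 38 were above 0. On that scale the median of rows averaging 1 TPM or more was -0.10, against 0.01 on the model scale, and 23 carriers were above that median. The sign differed between the scales in 7 carriers, which lay between 0.003 and 0.13 on the model scale and between -0.06 and -0.0001 on the other, among them SLC25A4, SLC25A12, SLC25A20, SLC25A25, SLC25A28 and SLC25A33.

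**Figure D3:**
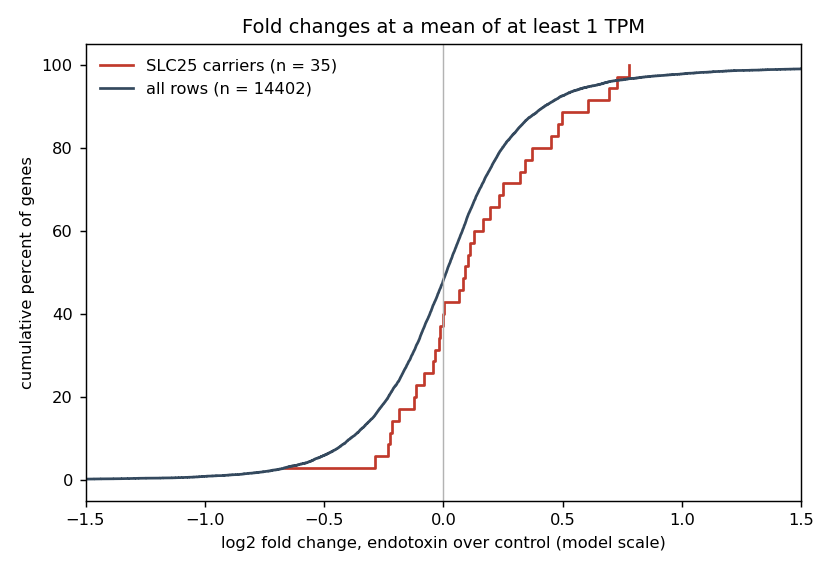
Cumulative percent of genes against log2 fold change of endotoxin over control on the model scale, for the 35 SLC25 carriers and for all 14402 rows averaging 1 TPM or more. The curve of the carriers lies to the right of the other over most of the range, with medians of 0.09 and 0.01, and ends at 0.78.

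Genes that work beside the carriers were taken from lists by role, and measured means here that a row carries the gene's symbol. Of 9 measured genes of the carrier import machinery, which escorts carriers through the outer membrane and inserts them into the inner one, none passed the threshold, all 9 were above 0 on the model scale and the median log2 fold change was 0.34. At a mean of 10 TPM or more 61.2% of rows with a p were above 0 on that scale. On the scale of group means plus 1 TPM 7 of the 9 were above 0, with TIMM8B at -0.11 and TOMM70 at -0.05. TOMM40, the channel of the outer membrane, had 64.4 TPM in endotoxin glands and 42.5 TPM in control glands, at 0.69 ± 0.24 (SE; adjusted p = 0.123), and TIMM22, which inserts carriers, 79.6 TPM with endotoxin and 63.0 TPM in control, at 0.44 ± 0.17 (SE; adjusted p = 0.195), in the authors' deposited table. Among 13 outer membrane channels and other inner membrane transporters none passed, with a median of 0.06. Smallest in p were LETM1, an ion exchange protein, at 0.44 ± 0.19, and MPC1, a subunit of the pyruvate carrier, at 0.39 ± 0.18 on the log2 model scale.

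Enzymes that use what the carriers move included the 2 genes of these lists that passed, out of 31 measured, beside 1.72% of all rows with a p. BCAT2, which transfers the amino group of branched-chain amino acids in the matrix, rose to 121.3 TPM in endotoxin glands, against 60.4 TPM in control glands, a log2 fold change of 1.08 ± 0.23 (SE; adjusted p = 0.000949) in the authors' deposited table. SHMT2, which makes glycine from serine in the matrix, rose to 31.6 TPM, against 20.7 TPM in control glands, at 0.70 ± 0.20 (SE; adjusted p = 0.037) in the authors' deposited table. ALAS1, which joins glycine to succinyl-CoA to start heme synthesis, was picked after its values were seen. It had 399.4 TPM with endotoxin and 184.4 TPM in control, at 1.22 ± 0.38 (SE; adjusted p = 0.0585). The enzymes' median was 0.19. Of 8 measured regulators of mitochondrial genes none passed, with the stress factor ATF4 at 0.37 ± 0.20 and the nuclear receptor ESRRA at 0.31 ± 0.18 nearest to it by p.

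Of the family members under other symbols, none of the 4 measured passed. MTCH2, an insertase of the outer membrane, was at 0.13 ± 0.14, and UCP2 had 47.9 TPM in endotoxin glands and 43.9 TPM in control glands, at 0.19 ± 0.44. UCP1, the uncoupling protein of brown fat, had 0.521 TPM with endotoxin and 2.27 TPM in control and has both p-values set to 1 in the authors' deposited table, which was treated as no p. UCP3 was listed at 0 TPM with endotoxin and 0.00956 TPM in control.

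**Figure D4:**
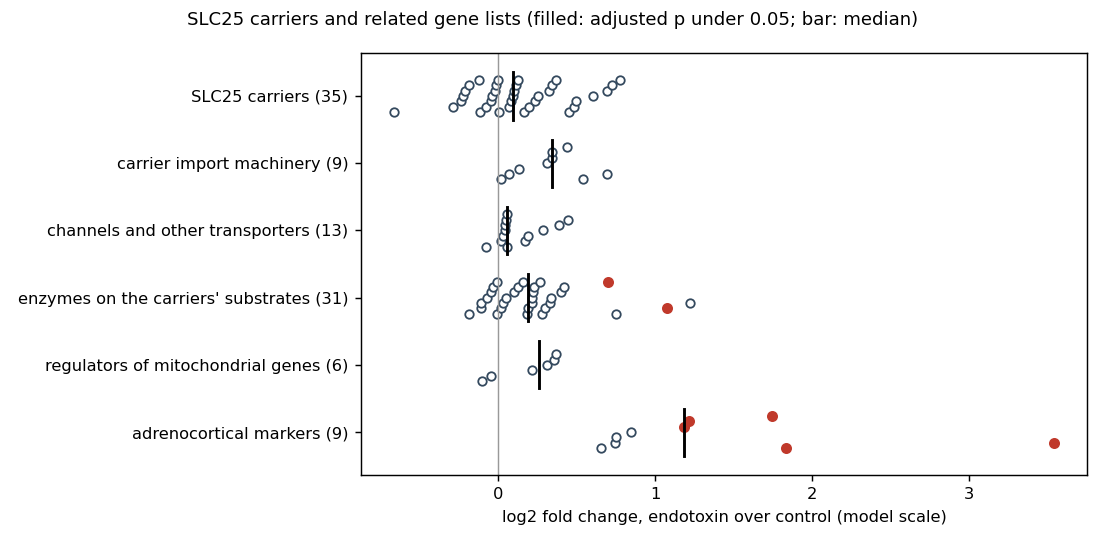
Log2 fold change of endotoxin over control on the model scale for the SLC25 carriers and related lists, each point 1 gene with a mean of at least 1 TPM, filled where the adjusted p was under 0.05 and with the list's median as a bar. The carriers hold no filled point, the enzymes 2 and the adrenocortical markers 5.

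Markers of cell types moved with the groups, and their part in the values of the carriers was not tested. Rose and fell mean here an adjusted p under 0.05, which 1.72% of all rows with a p passed in either direction. Of the 9 measured adrenocortical markers 5 rose (STAR, CYP11A1, CYP17A1, HSD3B1 and FDX1). All 9 were higher at an unadjusted p under 0.05, as were 7.58% of all rows with a p. The adrenocortical list summed to 9292 TPM in endotoxin glands and 4233 TPM in control glands. Of the 7 measured neutrophil markers 6 rose (S100A8, S100A9, S100A12, MPO, LTF and CSF3R), with a sum of 1915 TPM with endotoxin and 47.3 TPM in control. Of the 7 measured erythroid markers 1 rose (HBM, at a mean of 0.787 TPM over both groups). The erythroid list summed to 56.1 TPM with endotoxin and 34.2 TPM in control. All 7 were above 0 on the log2 model scale, and 6 were on the scale of group means plus 1 TPM. Of these 7 markers, 4 were higher at an unadjusted p under 0.05 (HBM, SLC4A1, ALAS2 and AHSP). The 3 measured cell cycle markers fell (TOP2A, BUB1B and CDK1), with sums of 10.8 TPM with endotoxin and 18.4 TPM in control. None of the 5 chromaffin or 8 brown fat and muscle markers passed, though UCP1 has no p. Smallest in p of the brown fat and muscle list were CIDEA at -0.77 ± 0.54 and ADIPOQ at -2.06 ± 1.78 on the log2 model scale. The chromaffin list summed to 8427 TPM with endotoxin and 8882 TPM in control, most of it in CHGA and CHGB, while 3 of its 5 genes were above 0 on the log2 model scale, with a median of 0.23. PNMT, which makes adrenaline, had 1307 TPM with endotoxin and 329.5 TPM in control, at 2.07 ± 0.73 (SE; interval 0.65 to 3.50; unadjusted p = 0.00429, adjusted p = 0.123), and SLC18A1, a vesicular amine transporter, was at 0.53 ± 0.26. The brown fat and muscle list summed to 222.7 TPM with endotoxin and 290.3 TPM in control. Most of this was FABP4, at 199.2 TPM with endotoxin and 240.7 TPM in control, or -0.42 ± 1.14 on the log2 model scale. Of this list 6 genes were below 0 and 2 above 0 on that scale. No measured marker of these lists was at 0 in either group.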

How the data were processed

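RNA of fetal adrenal glands was made into directional libraries, as the labels' protocols state. Tools listed in the submitters' processing notes, without roles, are DESeq2, Salmon 0.9.1 and fastp 0.19.4, and the build is Oar_v3.1. The authors deposited a table with group means, read here as TPM because each column has the sum that TPM has, a log2 column equal to the log2 ratio of means plus 1, a standard error, a score read as a Wald score, and p-values with adjusted p-values; 80 rows with both at 1 were treated as having no p. The adjusted p equals a Benjamini-Hochberg adjustment over the other rows. TPM and estimated counts per library were also deposited by the authors under other gene IDs, and served for depth and for the direction of A and B only. No count model was run on them, because without symbols no carrier could be identified there, though carriers may be among these IDs.

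Whether libraries are from separate fetuses of separate ewes is not stated, so p-values may measure technical spread. B was read as endotoxin from the rule given for the work and the series title. Genes at least 8-fold higher or lower numbered 12 and 1 for endotoxin over control in the labelled table (mean of log2(TPM + 1)). On the log2 ratio of group means plus 1 they numbered 16 and 3 there. On that ratio they numbered 19 and 3 for B over A in the authors' table, which uses other gene identifiers. Fold changes are score times standard error, with 95% normal intervals. The arithmetic of fold changes, intervals and adjustment was checked on simulated scores. That check could not show that score times standard error is the fold change of the authors' model. Of the carriers 1 is counted but not reported here by name, and the others are named; full values went to those with an unadjusted p under 0.05, the 3 most abundant and the 2 at each end at a mean of at least 1 TPM. From each other list the genes past the threshold, or else the 2 with the smallest p, were to be named. Members and lists were chosen with earlier results of these data known. Python 3.11.15, pandas 2.3.3 and SciPy 1.17.1 were used. The alternatives were the fold change scale, the pseudocount, the row per symbol, the rows adjusted over, centring and leaving out libraries.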

Additional observations from a re-analysis of the deposited data

How the results depend on the processing

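The other fold change scale, the pseudocount and centring leave the authors' p as it is, and no carrier has a second row under its symbol. Adjustment over every row with a p equals the authors' own, so these settings could not change the 0 calls. The adjustment over rows averaging 1 TPM or more could, and by it 1 carrier passed, SLC25A29, with fewer rows tested. The 22 carriers above 0 were 15 on the log2 ratio of means with a pseudocount of 1 or 0.1, 21 after centring and, chosen after seeing the data, 23 on that ratio centred on its own median. The carriers given in full kept their direction under each of these.

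For the direction of A and B, the 12 and 1 genes at least 8-fold higher and lower with endotoxin were 30 and 4 with a pseudocount of 0.1, and 16 and 3 on the ratio of group means, chosen after seeing the data. Leaving out 1 library gave 11 to 14 higher and 1 to 2 lower, the 2 without endotoxin replicate 2 or 4. A minimum mean of 1 TPM left both counts at 12 and 1. The cause of these differences was not tested. No paired analysis was possible because the table with the carriers' symbols holds group means only and the tables per library carry identifiers for which no symbols were given. For the same reason no library could be left out for a carrier, and no interval covers a difference between sexes.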
